A study of Bos grunniens x Bos taurus and Bos grunniens with 6 samples.

Results

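The macrophage marker genes of the testis were examined in RNA-seq libraries of 3 cattle-yak and 3 yak. The members are the genes whose symbol in the expression table, ignoring case, is one of 10 markers, and 9 rows of 18918 were found, each symbol on 1 gene, namely CSF1R, CD163, CD14, C1QA, C1QB, C1QC, TYROBP, CD68 and AIF1. The tenth marker, MRC1, was not analysed here. The cattle-yak were F1 males with a Jersey cattle sire and a Gannan yak dam, and the yak were Gannan males. All the animals were 4 years old, with 1 library of whole testis tissue from each. Yak and cattle-yak were kept in different counties, and the study's methods state that cattle-yak testes were removed by surgical castration whereas yak were euthanized first, so place and way of collection cannot be told apart from the group. Values are FPKM, the fragments on a gene divided by the length of its model and by the depth of the library, so that levels of different genes can be set side by side.

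Macrophages of the testis lie in the interstitium beside the Leydig cells and around the seminiferous tubules. Their survival depends on the receptor CSF1R and its ligands, and they take up debris with scavenger and pattern recognition receptors, make the chains of the complement starter C1q, and signal through adaptors such as TYROBP. The markers are therefore given by role, from the growth factor receptor to the surface receptors, the C1q chains, the adaptor and the intracellular proteins.

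The 9 genes did not move as 1 block. In the deposited FPKM, CD163, CD68 and the 3 C1q genes were higher in cattle-yak and AIF1 and CD14 lower. Of the genes with positive values all except C1QA turned negative when the libraries were centred on Sertoli or Leydig markers. Those lists were themselves called higher, so centring on them lowers the value of every gene by construction. Each gene was compared with limma on log2 (FPKM + 1) over the 15042 genes whose mean FPKM reached 0.5, and a call needed an adjusted p (Benjamini-Hochberg) under 0.05 together with a log2 (foldchange) beyond 1. All 9 passed the minimum. Of them 5 were called higher in cattle-yak, where 33.4% of all tested genes were, and 2 were called lower, where 20.8% were. The values of the groups did not overlap for any of the 9, as for 84.1% of all tested genes. The median log2 (foldchange) of the 9 genes was 1.16, and that of all tested genes was 0.51. Centred on the Sertoli markers these medians were −0.97 and −1.63, and centred on the Leydig markers −0.89 and −1.54. In bulk tissue a change in the number of cells of a type and a change in RNA per cell cannot be told apart.

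**Figure D1:**
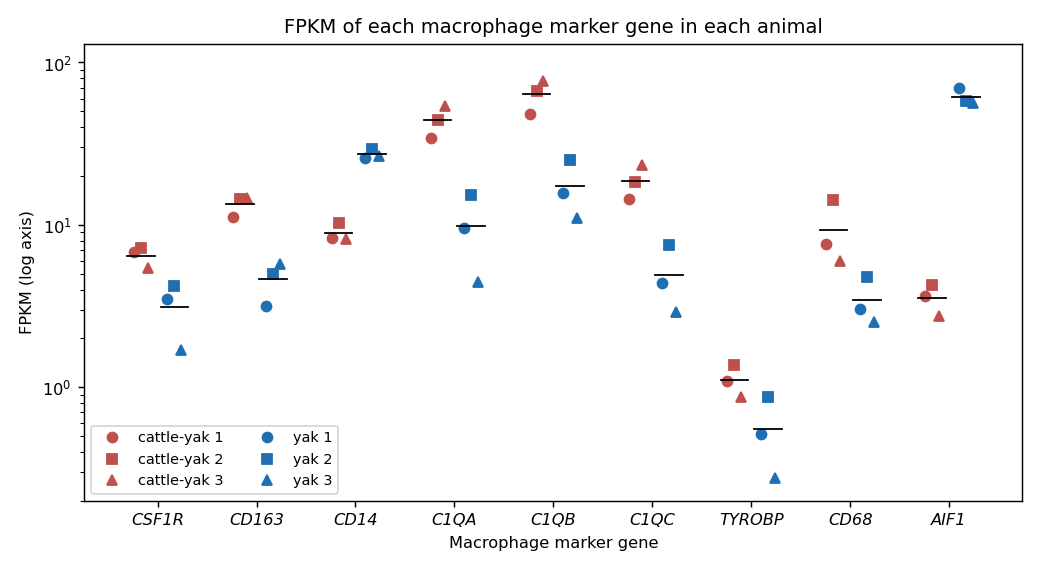
FPKM (log axis) of the 9 macrophage marker genes, with 1 point per animal (3 cattle-yak in red, 3 yak in blue) and a line at each group mean. The C1q genes reach 77.4 FPKM in cattle-yak and at most 25.0 FPKM in yak, while AIF1 lies at 2.75 to 4.23 FPKM in cattle-yak and 56.5 to 69.5 FPKM in yak. The differences of the C1q genes shrink to near 0 when the libraries are centred on Sertoli or Leydig markers, which by construction lowers the value of every gene.

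The libraries held 11175100 to 11834987 fragments on genes in cattle-yak and 12991641 to 13136129 in yak, recovered from the whole-number steps of the FPKM values. The numbers of fragments behind the markers ran from 11 for TYROBP in yak 3 to 888 for AIF1 in yak 1, so TYROBP is measured least precisely. The tissue carried the markers of testis in both groups: the Leydig cell hormone INSL3 reached 11173 ± 1043 FPKM in cattle-yak against 3842 ± 808 FPKM in yak (SD, n = 3 for each). Of a Sertoli cell list, 14 of 14 tested genes were called higher (median log2 (foldchange) 2.23), and of a Leydig cell list 7 of 7 (median 2.05), beside 33.4% of all tested genes. When each library was instead scaled by a median-of-ratios size factor, the median ratio of its genes to their geometric mean over the libraries, 12 and 6 of them were called higher, beside 17.7%. Markers of round and elongating spermatids were called lower in 8 of 8 cases, beside 20.8% of all tested genes. Their summed level was 15.6 to 78.9 FPKM in a cattle-yak library and 8411 to 10261 FPKM in a yak library. The part of this shift in cell types in the marker results below was not tested.

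CSF1R (ENSBGRG00000020676), the receptor of the macrophage growth factors CSF1 and IL34, had 6.78, 7.16 and 5.46 FPKM in cattle-yak 1, 2 and 3. Its values in yak 1, 2 and 3 were 3.51, 4.19 and 1.69 FPKM. Every cattle-yak animal lay above every yak animal, and yak 3 was the lowest of the 6. The mean was 2.07 times higher in cattle-yak, and the log2 (foldchange) of 0.90 (SE 0.25, adjusted p = 0.00955 from limma) was under the threshold of 1. It passed the threshold in voom on the recovered fragments (1.13), with a pseudocount of 0.1 (1.11) and when cattle-yak 3 (1.002) or yak 2 (1.09) was left out. With median-of-ratios size factors it was 0.40 (adjusted p = 0.19 from limma) and not called. Centred on the Sertoli markers the value of CSF1R was −1.24 and centred on the Leydig markers −1.15, both calls in the opposite direction. In these settings 71% and 68.3% of all tested genes were called lower.

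Both ligands of CSF1R were called higher in the deposited FPKM, but neither was called with median-of-ratios size factors (0.78 for CSF1 and 0.86 for IL34). CSF1 stood at 4.03 ± 0.65 FPKM in cattle-yak against 1.18 ± 0.12 FPKM in yak (SD, n = 3), which gave a log2 (foldchange) of 1.20 (limma, adjusted p = 1.4e-04). IL34, the second ligand, had 1.17, 2.11 and 1.20 FPKM in cattle-yak and 0.42, 0 and 0.11 FPKM in yak, with a log2 (foldchange) of 1.08. In all, 4 of 6 tested genes of the list of colony-stimulating factors, receptors and adaptors were called higher and 0 lower, where 33.4% of all tested genes were called higher, and with median-of-ratios size factors 0 of the 6 were called, where 17.7% were called higher. The adaptor GRB2 (0.61) and the ubiquitin ligase CBL (−0.29), which turns the receptor over, were the 2 not called.

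CD163 (ENSBGRG00000008424), the scavenger receptor for complexes of haemoglobin and haptoglobin, had 11.2, 14.4 and 14.7 FPKM in cattle-yak and 3.17, 5.002 and 5.75 FPKM in yak 1, 2 and 3. In this gene yak 3 was the highest yak, unlike in CSF1R. The mean was 2.90 times higher in cattle-yak, with a log2 (foldchange) of 1.38 (SE 0.20, adjusted p = 2.9e-04 from limma). Scaled by median-of-ratios size factors it was 0.83 and no longer called, and centred on the Sertoli markers it was −0.76. Among genes that handle haemoglobin iron, 5 of 7 tested were called higher and 0 lower, beside 33.4% of all tested genes called higher. With median-of-ratios size factors 3 of the 7 were called higher, where 17.7% of all tested genes were, and BLVRB (0.41) and HMOX1 (0.54) were no longer called. They included the ferritin heavy chain FTH1, whose symbol stands on 7 genes and whose most abundant copy, uncertain for that reason, had a log2 (foldchange) of 1.78, the biliverdin reductase BLVRB with 1.01, and the haem oxygenase HMOX1. HMOX1 stood at 25.6 ± 7.23 FPKM in cattle-yak against 11.7 ± 5.49 FPKM in yak (SD, n = 3), with 17.98 FPKM in yak 2 close to 18.2 FPKM in cattle-yak 1. The haptoglobin gene HP had at most 0.06 FPKM in any library.

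CD14 (ENSBGRG00000018040), the co-receptor that hands bacterial lipopolysaccharide to TLR4, went the other way. It had 8.28, 10.3 and 8.22 FPKM in cattle-yak and 26.0, 29.4 and 26.6 FPKM in yak. The spread within each group was small, with the highest animal 1.25 times the lowest in cattle-yak and 1.13 times in yak. The mean was 3.06 times higher in yak, and the log2 (foldchange) was −1.52 (SE 0.13, adjusted p = 9.8e-06 from limma). CD14 was called lower in each alternative analysis, with values from −1.47 to −1.61 when 1 animal was left out.

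Of the tested partners of CD14, only LY96 shared its direction in the deposited FPKM. LY96 (MD-2), which binds lipopolysaccharide in the TLR4 complex, was called lower in cattle-yak as CD14 was, with 4.35 ± 0.65 FPKM against 14.5 ± 2.36 FPKM (SD, n = 3) and a fall by 1.53 on the log2 scale (limma, adjusted p = 3.9e-05). TLR4 itself was low, with 0.83 ± 0.093 FPKM in cattle-yak against 0.32 ± 0.16 FPKM in yak (SD, n = 3), and its log2 (foldchange) of 0.47 was under the threshold. The adaptor TICAM2, which links TLR4 to the interferon branch, was called higher with 1.89, while the ubiquitin ligase TRAF6, whose symbol stands on 2 genes, was not called (0.54). Of 10 tested genes of the axis beside CD14, 4 were called higher (33.4% of all tested genes) and 1, LY96, lower (20.8%). With median-of-ratios size factors 3 were called higher (17.7%) and LY96 lower (27.7%). The lipopolysaccharide-binding protein LBP had at most 0.24 FPKM in its more abundant copy, under the minimum for the test.

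The 3 chains of C1q, the recognition molecule that starts the classical complement pathway, were the most abundant markers in cattle-yak. C1QB (ENSBGRG00000003451) had 48.3, 66.3 and 77.4 FPKM in cattle-yak and 15.8, 25.0 and 10.9 FPKM in yak. Its mean was 3.70 times higher in cattle-yak, with a log2 (foldchange) of 1.88 (SE 0.28, adjusted p = 3.2e-04 from limma). C1QA (ENSBGRG00000003422) had 34.3, 44.4 and 53.6 FPKM in cattle-yak and 9.54, 15.3 and 4.46 FPKM in yak. Cattle-yak 3 was the highest and yak 3 the lowest animal for both chains. The mean of C1QA was 4.51 times higher in cattle-yak, with a log2 (foldchange) of 2.18 (SE 0.36, adjusted p = 5.8e-04 from limma), the largest among the markers. C1QC (ENSBGRG00000003430) had 14.4, 18.5 and 23.4 FPKM in cattle-yak and 4.36, 7.55 and 2.91 FPKM in yak, and a log2 (foldchange) of 1.78 (SE 0.29, adjusted p = 5.1e-04 from limma).

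The order of the animals was the same in all 3 chains, with yak 2 above yak 1 and yak 1 above yak 3, and cattle-yak 3 above cattle-yak 2 and cattle-yak 1. The yak animals spread further than the cattle-yak animals, by 3.44 times from lowest to highest for C1QA against 1.56 times. The C1q chains were called higher with median-of-ratios scaling as well, where 17.7% of all tested genes were and 27.7% were called lower (1.598 for C1QA, 1.28 for C1QB and 1.23 for C1QC). Centred on the Sertoli markers the 3 chains lay close to 0, at 0.04, −0.26 and −0.35, where 0.259% of all tested genes were called higher and 71% lower. With the Leydig markers as the centre they lay at 0.13, −0.17 and −0.27, where 0.332% of all tested genes were called higher and 68.3% lower.

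A ratio within a library does not depend on the scaling of the libraries. C1QA made up 35.4%, 34.4% and 34.7% of the summed C1q FPKM in cattle-yak and 32.1%, 32.0% and 24.4% in yak. The groups did not overlap, by 2.26 percentage points between cattle-yak 2 and yak 1, and the exact permutation test (two-sided) over the 10 splits of the animals gave p = 0.1, the smallest p that 3 animals against 3 allow. The mean difference of 5.33 percentage points was 2.76 without yak 3, so that this animal carried much of it. C1QB took 49.7% to 51.3% in cattle-yak against 52.2% to 59.7% in yak (exact permutation test, p = 0.1). For C1QC the ranges of 14.3% to 15.1% and 14.7% to 15.9% overlapped (exact permutation test, p = 0.3). The summed C1q level per unit of CSF1R, a ratio chosen after the values were seen, was 14.3, 18.05 and 28.3 in cattle-yak and 8.48, 11.5 and 10.9 in yak. It was thus higher in every cattle-yak animal (exact permutation test, p = 0.1). By contrast, CD163 per unit of CSF1R ran from 1.66 to 2.69 in cattle-yak and from 0.90 to 3.41 in yak, which overlap, and so did C1q per unit of CD163, from 8.62 to 10.5 and from 3.18 to 9.58. Neither of these ratios was planned.

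The proteases that sit on C1q were called higher too. C1S reached 156.3 ± 56.2 FPKM in cattle-yak against 35.8 ± 10.4 FPKM in yak, and C1R 95.6 ± 19.1 against 24.8 ± 4.46 FPKM (SD, n = 3 for each). The log2 (foldchange) was 2.08 for C1S and 1.90 for C1R (adjusted p = 2.0e-05 for C1R from limma). Calreticulin (CALR), a chaperone that also binds C1q, was the most abundant gene of the complement list and had a log2 (foldchange) of 0.95, just under the threshold. Of 15 tested genes of this list, 10 were called higher and 0 lower, with a median of 1.11, where 33.4% of all tested genes were called higher. Under the median-of-ratios scaling 5 were called higher, C1S and C1R among them, where 17.7% of all tested genes were, and 1 was called lower, with a median of 0.61. The central component C3 was not called (0.36) and was named after its value was seen.

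TYROBP (ENSBGRG00000022191), also called DAP12, is the adaptor through which several myeloid receptors signal. It was the least abundant marker, with 1.10, 1.37 and 0.87 FPKM in cattle-yak and 0.52, 0.87 and 0.27 FPKM in yak. Cattle-yak 3 and yak 2 were practically equal, with 31 and 35 fragments on the gene. The mean was 2.01 times higher in cattle-yak, and the log2 (foldchange) of 0.45 (SE 0.19) did not pass the test (adjusted p = 0.0569 from limma). At this level the pseudocount compresses the difference, and voom in limma on the fragments gave 1.11 (adjusted p = 0.0374) and called 7 of the 9 markers higher, where it called 39.7% of all tested genes. With median-of-ratios size factors TYROBP had 0.18 (adjusted p = 0.43 from limma). The deposited table gives this gene no description, and its model length of 3080 bases follows from the FPKM steps. Per unit of CSF1R, TYROBP was 0.162, 0.191 and 0.159 in cattle-yak and 0.148, 0.207 and 0.163 in yak. These ratios, which were not planned, overlap (exact permutation test, p = 0.8).

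Of 7 tested receptors, adaptors and kinases that work with TYROBP, 1 was called higher and 1 lower, beside 33.4% and 20.8% of all tested genes. VAV1, an exchange factor of haematopoietic cells, was the former (1.05, and 0.65 and not called with median-of-ratios size factors), and TREM1, a receptor of myeloid cells, was the latter. TREM1 had 1.63, 2.95 and 1.87 FPKM in yak and is listed at 0 in every cattle-yak library. Both were named after their values were seen. The kinase SYK was low, at 0.82 ± 0.12 FPKM in cattle-yak against 0.31 ± 0.0018 FPKM in yak (SD, n = 3), and its log2 (foldchange) was 0.47. The phospholipase PLCG2 and the adaptor HCST had log2 (foldchange) values of 0.75 and 0.93 and were not called. TREM2, the best known partner of TYROBP in macrophages, had at most 0.31 FPKM and was under the minimum for the test.

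CD68 (ENSBGRG00000015552), a glycoprotein of the lysosome and endosome, had 7.63, 14.2 and 5.99 FPKM in cattle-yak and 3.02, 4.77 and 2.52 FPKM in yak. Cattle-yak 2 stood well above the other two cattle-yak. The mean was 2.70 times higher in cattle-yak, with a log2 (foldchange) of 1.16 (SE 0.31, adjusted p = 0.00738 from limma). The call of CD68 rested on cattle-yak 2, since without it the log2 (foldchange) was 0.84. With median-of-ratios scaling it was 0.65 and was not called either.

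AIF1 (ENSBGRG00000013397), also called IBA1, is a calcium-binding protein that bundles actin and a common stain for macrophages. It had 3.65, 4.23 and 2.75 FPKM in cattle-yak and 69.5, 57.7 and 56.5 FPKM in yak, on 31 to 46 and 714 to 888 fragments. The lowest yak thus stood far above the highest cattle-yak. The mean was 17.3 times higher in yak, and the log2 (foldchange) was −3.78 (SE 0.16, adjusted p = 3.4e-07 from limma), the largest change among the markers in either direction. It was called lower under each alternative, with values from −3.65 to −3.89 when 1 animal was left out. Spermatid markers, whose sums are given above, were lower in the same 3 animals, and their part in the AIF1 result was not tested. Per unit of CSF1R, AIF1 was 0.539, 0.592 and 0.503 in cattle-yak and 19.8, 13.8 and 33.5 in yak (exact permutation test, p = 0.1). This ratio was not planned.

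**Figure D2:**
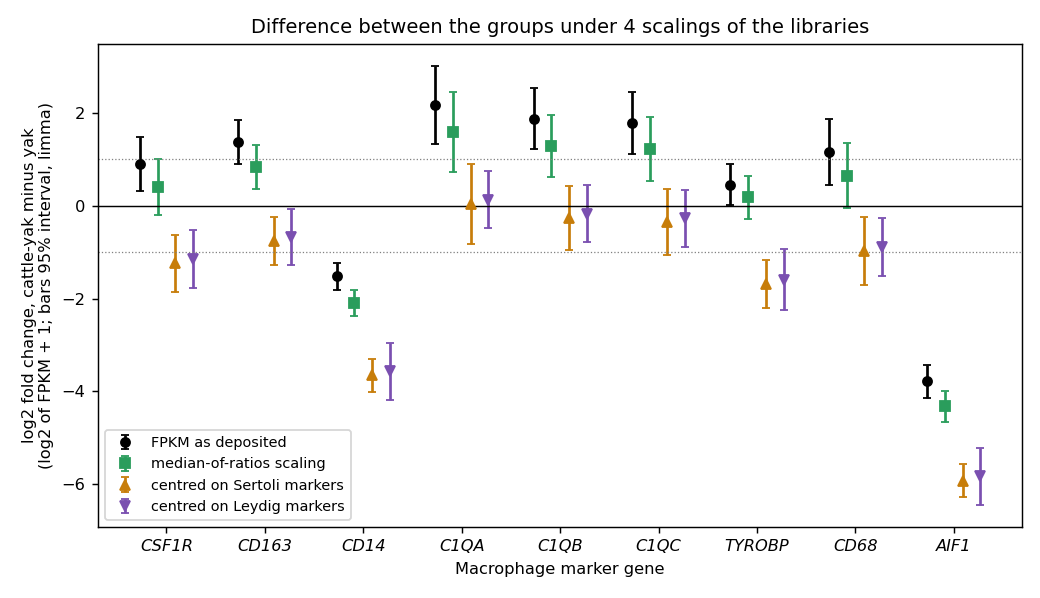
Log2 (foldchange) of each marker gene, cattle-yak minus yak, on log2 (FPKM + 1) with 95% intervals from limma under 4 scalings of the libraries, with dotted lines at −1 and 1. AIF1 and CD14 lie below −1 under all 4, whereas of the other 7 genes only C1QA stays above 0 when the libraries are centred on Sertoli or Leydig markers (0.04 and 0.13). Centring on these markers by construction lowers the value of every gene, with the median of all tested genes at −1.63 (Sertoli) and −1.54 (Leydig).

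The make-up of the marker set differed between the groups. In cattle-yak the order by mean FPKM was C1QB, C1QA, C1QC, CD163, CD68, CD14, CSF1R, AIF1 and TYROBP, and in yak AIF1 and CD14 came first, followed by C1QB, C1QA, C1QC, CD163, CD68, CSF1R and TYROBP. Beyond AIF1 and CD14 the order of the other 7 genes was the same in both groups. Neighbours in this order were not all apart: in cattle-yak CD68 (9.27 ± 4.35 FPKM) and CD14 (8.93 ± 1.18) lay within their spread (SD, n = 3), whereas CD14 was above CSF1R (6.47 ± 0.89) in every animal. In yak the same held, within the spread, for C1QC (4.94 ± 2.37), CD163 (4.64 ± 1.33), CD68 (3.44 ± 1.18) and CSF1R (3.13 ± 1.29). AIF1 made up 2.69%, 2.34% and 1.43% of the summed FPKM of the 9 genes in cattle-yak and 51.3%, 38.5% and 50.6% in yak (exact permutation test, two-sided, p = 0.1). The C1q chains together took 71.4% to 80.3% in cattle-yak against 16.4% to 32.0% in yak.

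Summed over the 9 genes, the level was 135.7, 180.8 and 192.4 FPKM in cattle-yak and 135.5, 149.9 and 111.7 FPKM in yak, sums that overlap. Without AIF1 and CD14, a choice made after the values were seen, the sums were 123.8 to 181.4 FPKM and 28.6 to 62.8 FPKM, which do not overlap. A score over the list thus depends on whether these 2 genes are in it.

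**Figure D3:**
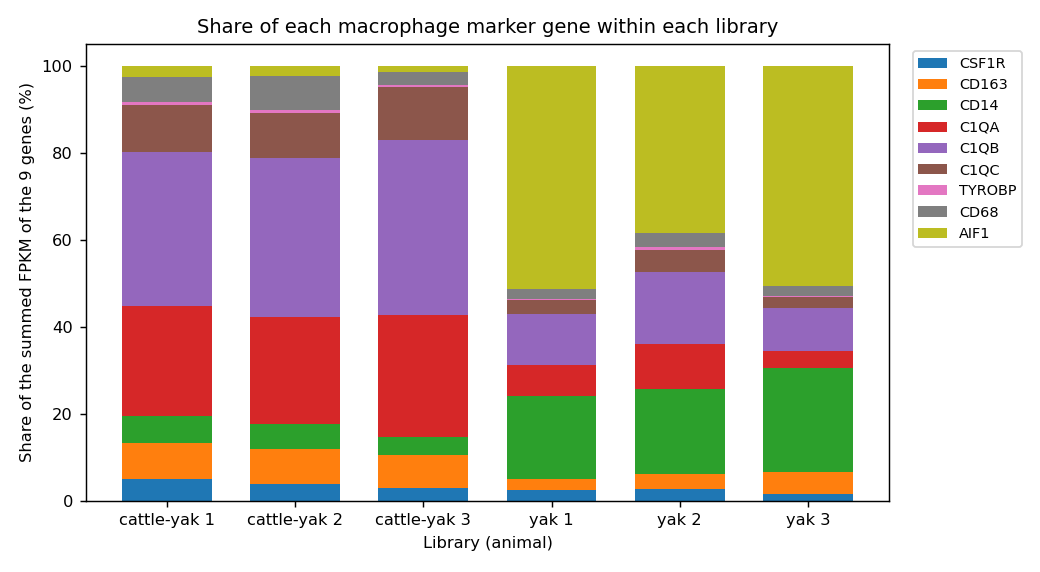
Share (%) of each of the 9 marker genes in their summed FPKM, with 1 bar per animal. AIF1 and CD14 together fill 5.70% to 8.80% of the bar in the 3 cattle-yak and 58.1% to 74.4% in the 3 yak.

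The label of the set was checked against 23 other tested macrophage and myeloid genes. Of these, 7 were called higher in cattle-yak and 1 lower, with a median log2 (foldchange) of 0.80, where 33.4% and 20.8% of all tested genes were called. With median-of-ratios size factors 3 were called higher, namely PTPRC, MPEG1 and LYVE1, and 1 lower, with a median of 0.40, where 17.7% and 27.7% of all tested genes were called. The pan-leukocyte phosphatase PTPRC, whose symbol stands on 2 genes, had 8.75, 15.6 and 14.1 FPKM in cattle-yak and 3.77, 4.47 and 1.90 FPKM in yak in its more abundant copy (log2 (foldchange) 1.67, adjusted p = 6.7e-04 from limma). LYVE1, carried by one class of tissue-resident macrophages and by lymphatic vessels, had 6.13 ± 1.68 FPKM against 1.28 ± 1.01 (SD, n = 3) and 1.74. The other genes called higher included MPEG1 (1.69), ITGB2 (1.05) and, named after their values were seen, FOLR2 and CYBB. CD74, the invariant chain of antigen presentation, had 0.80, the lysosomal LAPTM5 0.99 and the complement receptor VSIG4 0.66, none of them past the threshold. SPI1 (PU.1), the transcription factor of the myeloid lineage, differed by less than the spread between animals, with 4.64 ± 0.84 FPKM against 3.91 ± 1.56 (SD, n = 3). TIMD4, a receptor for phosphatidylserine and the 1 gene called lower, was named after its value was seen. It had 1.40, 2.89 and 1.85 FPKM in cattle-yak and 30.4, 33.9 and 37.4 FPKM in yak, a log2 (foldchange) of −3.54, which stands beside that of AIF1 in size.

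Markers of other leukocytes were low or mixed. Of 10 tested T and NK cell genes, 4 were called higher and 0 lower (median 0.91), beside 33.4% of all tested genes called higher, and 0 were called with median-of-ratios size factors (median 0.57), beside 17.7%. CD3D, a chain of the T cell receptor complex, had 5.64 to 11.1 FPKM in cattle-yak and 5.91 to 12.2 FPKM in yak and was not called, and CD247, another such chain, had 194.0 FPKM in yak 1 but 4.82 FPKM in yak 2 and 2.48 FPKM in yak 3. Among B cell genes, CD79A (−1.28) was called lower and JCHAIN was not (−0.05). Of 6 tested neutrophil and mast cell genes, 3 were called lower, namely S100A12, CPA3 and MPO, and 0 higher, beside 20.8% of all tested genes called lower, and with median-of-ratios size factors 4 were called lower, beside 27.7%. S100A12 had 0.93 ± 0.13 FPKM against 48.5 ± 4.47 (SD, n = 3), while CSF3R, the neutrophil growth factor receptor, had 9.21 ± 0.39 and 9.40 ± 0.57 FPKM (SD, n = 3). The 2 tested dendritic cell genes, ZBTB46 (0.56) and XCR1 (−0.91), were not called, though XCR1 was called lower with median-of-ratios size factors (−1.30). Haemoglobin alpha (HBA) had at most 0.67 FPKM in any library, and AHSP, its chaperone, was the 1 tested gene of the erythroid list and was not called (−0.83) except, as lower, with median-of-ratios size factors (−1.31). Among endothelial genes 4 of 7 were called higher, ENG among them (1.16), and VWF was called lower (−1.85), with a list median of 1.13, beside 33.4% and 20.8% of all tested genes. With median-of-ratios size factors 0 of the 7 were called higher (ENG 0.58) and VWF was still lower (−2.37), with a median of 0.58, beside 17.7% and 27.7%. CD79A, CPA3 and MPO were named after their values were seen.

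**Figure D4:**
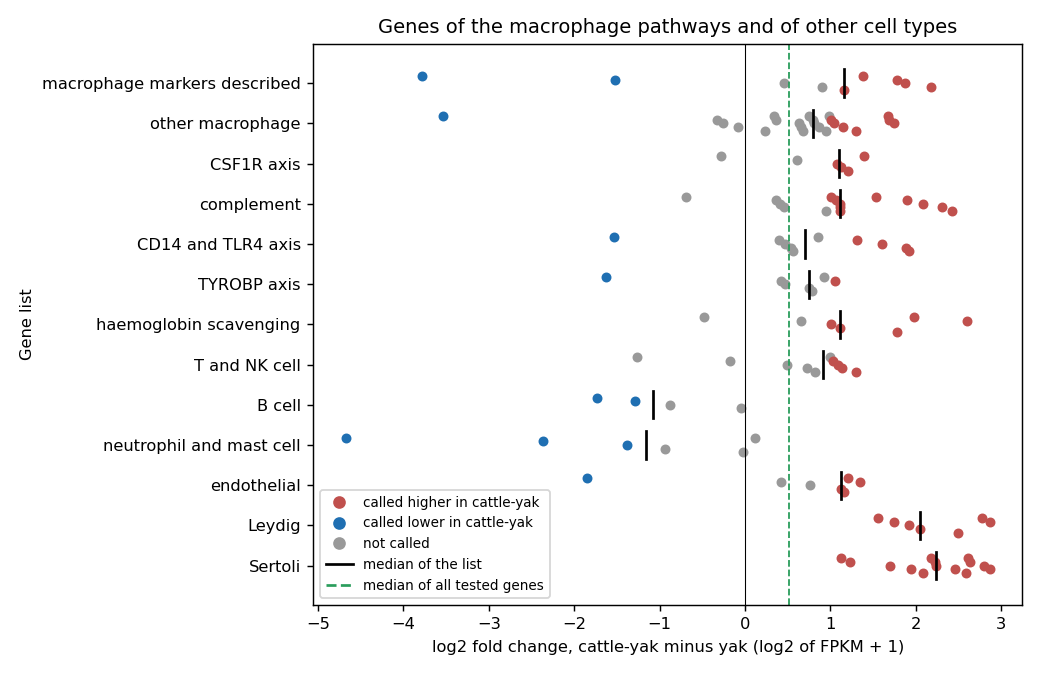
Log2 (foldchange), cattle-yak minus yak, on log2 (FPKM + 1) of the tested genes of 13 lists, 1 point per gene, with a black line at each list's median and a dashed line at the median of all tested genes (0.51). The macrophage markers have a median of 1.16, below those of the Sertoli (2.23) and Leydig (2.05) lists, and median-of-ratios scaling lowers the median of the 9 markers to 0.65 without changing its sign. Centring on Sertoli or Leydig markers turns it negative, and by construction it lowers the value of every gene. The median of all tested genes is then −1.63 (Sertoli) and −1.54 (Leydig).

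The genes with the most similar profiles over the 6 libraries were taken by the Euclidean distance of log2 (FPKM + 1) after centring each gene on its mean. ITGB2, an integrin chain of leukocytes, was the nearest to CSF1R, with UBD and SLC46A3 practically as near (distance 0.25 for each). MPEG1, a pore-forming protein of macrophages, was the nearest to C1QC (0.35) and the second nearest to C1QB (0.41). TFPI2 was the nearest to C1QB (0.35). Those nearest to AIF1 were CA6 (0.20), MYORG (0.29) and TTLL3 (0.29), a tubulin glycylase, with 17.6, 30.1 and 65.7 FPKM in yak and 0.29, 1.21 and 3.94 FPKM in cattle-yak. ADA2 (0.12), MYH15 (0.13) and MTIF3 (0.15) were nearest to CD14. RPL17 and ALDH1A1 were nearest to C1QA (both 0.58), NMNAT3 to CD163 (0.17), NKG7 to CD68 (0.39) and SSH2 to TYROBP (0.12). Such neighbours are many, with 372 genes within a distance of 1 of AIF1, 3430 within that of CSF1R and 5040 within that of TYROBP, so the nearest ones are a description over 6 libraries that differ mainly between the groups.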

How the data were processed

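Per the study's methods, the authors cleaned the reads of each testis library with Trimmomatic, aligned both groups to the yak genome (LU_Bosgru_v3.0) using HISAT2 and obtained FPKM from Cufflinks, whose versions are not given in the sources used here. The deposited FPKM values are 1 per gene and animal, divided by library depth but not scaled further between libraries, and not pooled. Reads of the hybrid's cattle alleles were thus mapped to the yak genome, and the effect of this on the markers was not tested. Columns were assigned by the library titles. Animals are numbered in the order of the deposited samples.

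Genes whose mean FPKM reached 0.5 were compared two-sided on log2 (FPKM + 1) with limma 3.58.1 (variance trend) in R 4.3.3 over the whole table. The fit was also run on simulated data in which few genes differed. That run cannot show how the fit behaves where, as here, many genes differ. With the pseudocount of 1, the change of low genes is understated. Whole fragments were recovered with Python 3.11.15 from the whole-number ratios of a gene's FPKM in different libraries, and used in voom as an alternative. They were recovered for 17973 of 18918 genes. A gene was kept only if its values lay within 0.03 of whole numbers, so that closeness is no check of the recovery. The depth was chosen to make gene lengths whole, which held within 0.02 bases for 99.5% of 9939 genes. Shares and ratios were compared with exact permutation tests. Planned among these were the share of AIF1 in the marker sum and the shares of the C1q chains in their sum. The ratios to CSF1R or CD163 were not planned. Other alternatives were another pseudocount, other minimums, TPM, median-of-ratios size factors, centring on Sertoli or Leydig markers, a robust prior and the omission of each animal. Sets of genes received no test of their own, and their counts are given beside the share of all tested genes.

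Named genes are the markers, the 2 most abundant tested genes of each other list, the preset partners, and the 3 nearest profiles of each marker, of which some are given. Where a symbol stands on several genes, the most abundant is used. The members and lists were chosen with earlier results of these data known. Some results are not reported here, and chromosome positions were not used.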

Additional observations from a re-analysis of the deposited data

How the results depend on the processing

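Of the log2 (foldchange) values of single markers under the alternatives, 133 in all, 111 kept their direction and stayed called or not called, 5 lost the call, 5 gained it and 12 reversed. A value that was kept could still cross 1 of the thresholds. CSF1R, not called in either, had an adjusted p of 0.0095 in the main fit and 0.19 with median-of-ratios size factors (limma). AIF1 and CD14 were called lower under each alternative. With median-of-ratios size factors 3 markers were called higher in place of 5 (all genes: 2655 in place of 5023) and their median was 0.65. Centred on the Sertoli markers, 0 markers were called higher and 4 lower (all genes: 39 and 10679), with a median of −0.97, and CSF1R, CD163, C1QB, C1QC, TYROBP and CD68 reversed to −1.24, −0.76, −0.26, −0.35, −1.69 and −0.97. Centred on the Leydig markers, 0 were called higher and 4 lower (all genes: 50 and 10270), with a median of −0.89, and the same 6 genes had −1.15, −0.67, −0.17, −0.27, −1.60 and −0.89. These centrings subtract lists that were themselves called higher, which by construction moves each gene down. Voom on the recovered fragments called 7 markers higher, where it called 39.7% of all tested genes, against 5.

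When 1 animal was omitted at a time, 4 to 6 markers were called higher and 2 lower (all genes: 4904 to 5134 and 3076 to 3192), and the median ran from 0.84, without cattle-yak 2, to 1.37. The difference in the AIF1 share was −48.8 to −42.4 percentage points, and −36.3 by fragments in place of FPKM, which weights genes by length. For the C1q shares the differences ran from 2.76 to 6.63 for C1QA, −6.08 to −2.33 for C1QB, the last without yak 3, and −1.05 to −0.44 for C1QC. Without AIF1 and CD14, an alternative added after seeing the data, the median was 1.38.

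No paired analysis was possible because the groups are different animals and no pairing between them is given. Depth limits mainly TYROBP, with 11 to 47 fragments per library, and 3 animals per group hold the exact tests at p = 0.1 or above.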
